A study of Rattus norvegicus with 6 samples.

Results

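ER-associated degradation (ERAD) is the route by which misfolded proteins of the endoplasmic reticulum (ER) are recognised, passed back across the membrane, ubiquitinated and destroyed by the proteasome. The transcripts of 10 genes at its core were followed in rat INS-1 insulinoma cells. They were chosen by name: Syvn1, Sel1l and Herpud1 of the ligase complex, the derlins Derl1, Derl2 and Derl3, the lectins Os9 and Erlec1, and the mannosidase-like factors Edem1 and Edem2. Each has 1 row with its symbol among the 32900 genes and features of the table, and all 10 were among the 15579 genes that were tested (a mean over the 6 lines of 5 or more normalized counts). The cells are INS-1(832/13) derivatives that carry a mouse Ins2 C-peptide mCherry transgene and a human INS-neoR transgene, grown in 7.5 mM glucose. The 3 control lines (5-9, 2 and 16) have lost the imprinted Prader-Willi syndrome (PWS) domain from the silent maternal allele, and the 3 PWS lines (3, 19-1 and 19-4) have lost it from both alleles. The control lines therefore carry a deletion as well, and the groups differ in whether the active paternal copy is also gone. Lines 2, 16, 3 and 19 were all derived from line 5-9, and 2 of the PWS lines, 19-1 and 19-4, share a parent (line 19), which leaves 2 PWS clones. Each line gave 1 library of total RNA depleted of rRNA, so the spread below is the spread between lines.

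In the ER of a secretory cell, the membrane ubiquitin ligase encoded by Syvn1 (HRD1) is held in a complex by Sel1l, and Herpud1 helps to assemble it. The derlins are membrane proteins related to rhomboid proteases without protease activity and take part in moving substrates out of the ER. Os9 and Erlec1 (XTP3-B) bind trimmed mannose chains of glycoproteins and bring them to Sel1l, and the Edem proteins promote that trimming. Pancreatic beta cells make very large amounts of proinsulin in the ER, and Sel1l and Syvn1 are known to act on misfolded proinsulin. Many genes of this system are induced by the unfolded protein response through the transcription factors ATF6 and XBP1, which read short motifs such as the ER stress response element (ERSE), ERSE-II and the unfolded protein response element (UPRE).

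These motifs were searched in promoter windows from RefSeq (GRCr8), which run from 250 bases before to 50 bases after the start that the table uses for a gene. The table holds a window for 8 of the 10 genes, and none for Derl1 and Os9. The sequences of Derl3 and Herpud1 are shown because theirs were the only windows of the 8 with a match to ERSE (CCAAT, 9 bases of any kind, then CCACG) or ERSE-II (ATTGG, 1 base of any kind, then CCACG) on either strand. Capitals mark the match, and both windows are written in the direction of the gene. The Derl3 window lies at chr20:12766416-12766715 on the minus strand, and the Herpud1 window at chr19:10614658-10614957 on the minus strand.
Derl3: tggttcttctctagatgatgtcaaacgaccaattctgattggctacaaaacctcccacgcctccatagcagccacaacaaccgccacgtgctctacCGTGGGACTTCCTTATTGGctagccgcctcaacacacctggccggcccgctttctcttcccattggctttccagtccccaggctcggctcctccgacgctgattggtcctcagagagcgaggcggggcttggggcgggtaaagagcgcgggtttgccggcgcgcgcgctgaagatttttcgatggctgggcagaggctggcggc
Herpud1: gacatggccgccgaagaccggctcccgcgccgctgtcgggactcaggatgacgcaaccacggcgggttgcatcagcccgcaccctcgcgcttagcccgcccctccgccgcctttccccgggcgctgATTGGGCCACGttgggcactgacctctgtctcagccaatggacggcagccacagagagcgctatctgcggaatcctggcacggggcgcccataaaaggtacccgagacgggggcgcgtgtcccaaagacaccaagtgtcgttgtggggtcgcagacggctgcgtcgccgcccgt
In Derl3 the ERSE is read on the opposite strand and ends 135 bases before the start. In Herpud1 the ERSE-II is read on the same strand as the gene and ends 113 bases before the start. The ERSE of Derl3 is set below beside those of 2 ER chaperone genes, each written from CCAAT to CCACG, with the fixed letters of the motif in capitals. Hspa5 encodes BiP, the main chaperone of the ER lumen, and Creld2 a protein of the secretory pathway that ER stress induces. Both were named by hand and not by a rule. Their log2 fold changes, PWS minus control lines, were -0.59 for Hspa5 and -0.66 for Creld2. Of the 15 tested genes with an ERSE, Derl3 among them, 12 were lower on average and 3 higher, with a median of -0.28.
Derl3: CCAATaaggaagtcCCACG
Hspa5: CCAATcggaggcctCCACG
Creld2: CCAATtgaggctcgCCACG
An ERSE was present in 22 of 33469 RefSeq windows (0.0657%), an ERSE-II in 17 (0.0508%) and a UPRE (TGACGTGG or TGACGTGA) in 333 (0.995%). No window of the 8 held a UPRE. The shorter CCAAT, which is part of ERSE and, on the other strand, of ERSE-II, was found in 37.5% of all windows and in those of Syvn1, Sel1l, Herpud1, Derl2, Derl3 and Edem1. A match is a description of the sequence, and a window without one says only that these letters are not in these 300 bases.

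The deletion was seen in the data. The imprinted gene Mkrn3 had 79 to 97 reads in the control lines and 0 in every PWS line, where a count of 0 allows up to 3 reads. Between 26016478 and 36084261 counted reads were recovered per line. All 8 beta cell markers were present in every line, while of 19 markers of other cells (alpha, delta, PP, acinar, duct, fibroblast and macrophage) 7 had 0 reads in every line and 14 had at most 3. Those at 0 were Irx2, Sst, Prss1, Amy2a3, Cftr, Pdgfrb and Ptprc, and those above 3 reads in a line included Gcg, Hhex, Sox9 and Cd68. The summed level of the 8 beta cell markers, most of it Ins1 and Iapp, was 480282 to 557508 normalized counts in the control lines and 250326 to 452571 in the PWS lines. The alpha cell hormone gene Gcg had 0 to 19.0 normalized counts in the control lines and 13.2 to 100.01 in the PWS lines, where line 19-4 was the highest. The part of these differences in the results below was not tested. In total RNA from a culture, a change in the RNA of each cell and a change in the make-up of the cells cannot be told apart.

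Of the 10 ERAD genes, 9 had a lower mean log2 level in the PWS lines than in the control lines, where 50.7% of all tested genes were lower and 49.3% higher. Their median log2 fold change was -0.17, beside -0.0028 for all tested genes, and without Derl3 it was -0.17 over 9 genes. After adjustment no gene of the 10 had a p-value under 0.05 by limma, edgeR or DESeq2, where 0.257%, 0.205% and 1.46% of all tested genes did so. At an unadjusted limma p-value under 0.05 there were 2, Derl3 and Herpud1, where 11.3% of all tested genes were under it. In 3 genes, Derl1, Derl2 and Derl3, every PWS line was lower than every control line, as in 9.01% of all tested genes, and in none of the 10 was every PWS line higher, as in 8.43%. With 3 lines against 3, an exact two-sided permutation test of a single gene cannot give a p-value under 0.1.

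**Figure D1:**
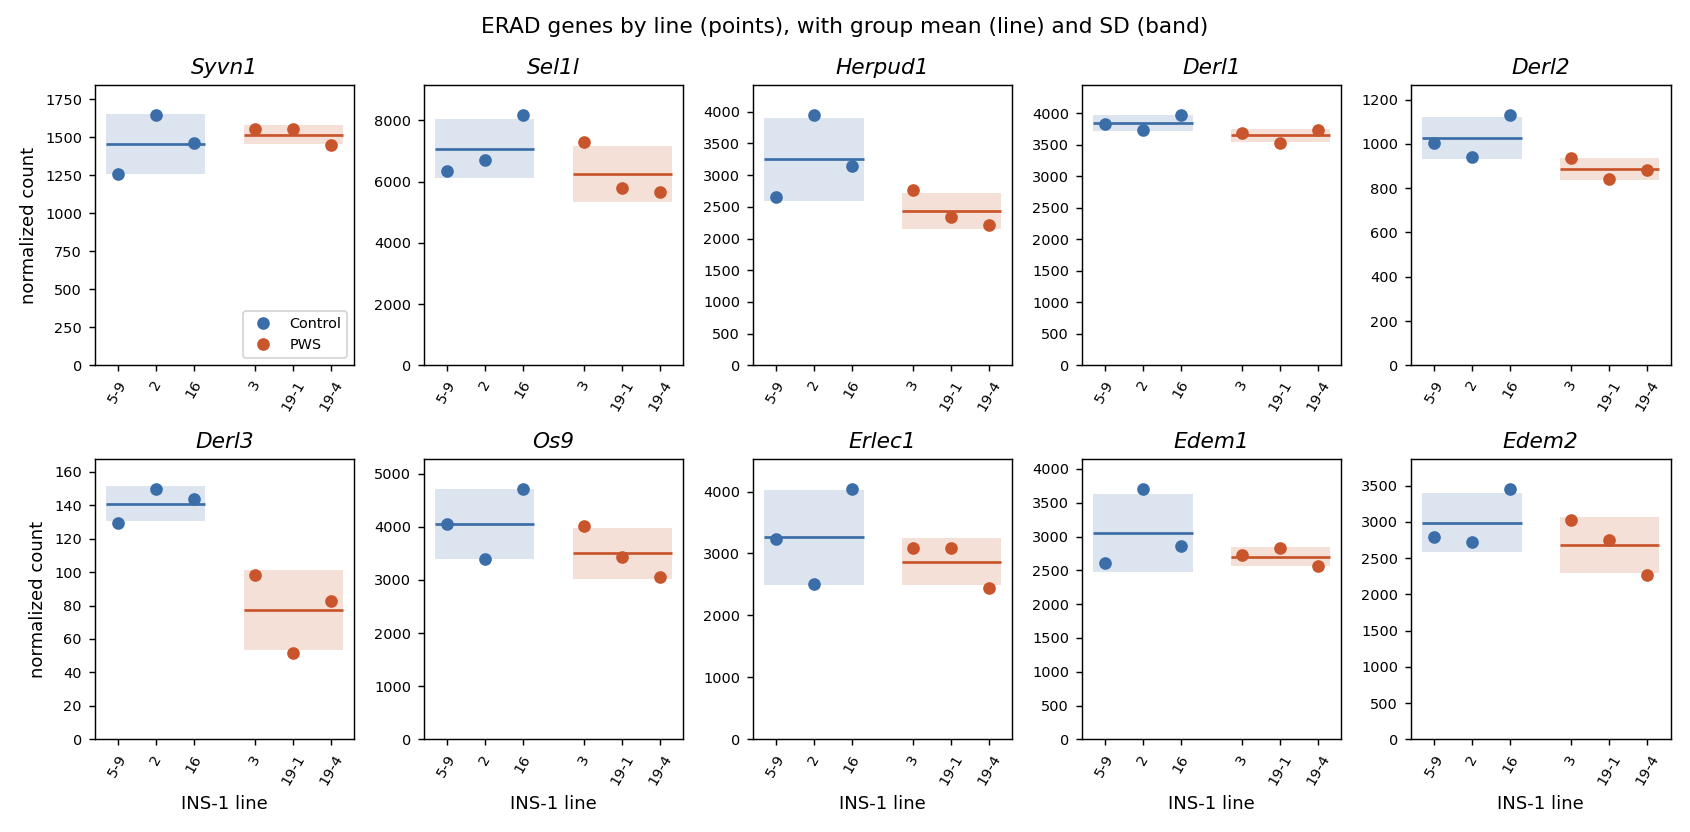
Normalized counts (y axis, from 0, a scale for each gene) of the 10 ERAD genes in each INS-1 line (x axis), with points for lines, a horizontal line for the mean of a group and a band for its SD over 3 lines. The points of the 2 groups stand apart for Derl1, Derl2 and Derl3, by a large margin in Derl3 and by a few counts in Derl1, and overlap for the other 7 genes.

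Derl3 had the widest difference. This derlin is the member of its family that is most restricted to secretory tissues. It had normalized counts of 129, 150 and 144 in control lines 5-9, 2 and 16 and 98.01, 51.4 and 82.7 in PWS lines 3, 19-1 and 19-4. Every PWS line was lower than the lowest control line, and line 19-1 was the lowest of the 6. The means were 141 ± 10.6 and 77.4 ± 23.8 (SD, n = 3 lines each), and the difference on the log2 scale was -0.90 (standard error 0.24, 95% confidence interval -1.44 to -0.36). Its unadjusted limma p-value was 0.0048 and its adjusted p-value 0.277. In DESeq2 the log2 fold change was -0.86 and the adjusted p-value 0.0606, which passes the cutoff of 0.1 used in the study, as 2.37% of all tested genes did. Without line 19-1 the log2 fold change was -0.64 and without line 3 it was -1.10.

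These values rest on few reads, none of them assigned to Derl3 alone. There were 136, 163 and 140 reads in the control lines and 96, 43 and 91 in the PWS lines, where counting alone gives a coefficient of variation of up to 15.2%. A second gene of the annotation, LOC103694875 (ENSRNOG00000028243), had the same value as Derl3 (ENSRNOG00000055498) in every line. Both had 0 reads under nonunique none counting, which leaves out reads with several alignments or in overlapping genes. RSEM, which divides such reads, gave the same value to both, 29.5, 38.8 and 24.6 in the control lines and 20.4, 9.63 and 17.2 in the PWS lines. Every PWS line was below every control line there too, with a log2 fold change of -0.97 and an adjusted limma p-value of 0.403. The value of Derl3 is therefore that of the pair, and which copy the reads came from cannot be told apart. The RefSeq table of GRCr8 holds 1 gene named Derl3 and none named LOC103694875. Apart from sequencing, the paper reports lower Derl3 in the PWS lines by a quantitative PCR assay of RNA (RT-droplet digital PCR). That assay used independent biological replicates of the same lines. Whether it separates Derl3 from LOC103694875 was not tested here.

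The other derlins differed less. Derl2 (ENSRNOG00000055466) had normalized counts of 1005, 942 and 1131 in control lines 5-9, 2 and 16 and 937, 842 and 881 in PWS lines 3, 19-1 and 19-4. The groups did not overlap, but line 3 was lower than line 2 by less than the counting error of either. Its log2 fold change was -0.21 (standard error 0.09, 95% confidence interval -0.42 to 0.00057), with an adjusted limma p-value of 0.443. Its unadjusted p-value was 0.0505 in limma and 0.0426 in edgeR. Without control line 16 the log2 fold change was -0.14.

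Derl1 (ENSRNOG00000005551) was the steadiest of the 10. It had 3832, 3737 and 3975 normalized counts in the control lines and 3690, 3532 and 3732 in the PWS lines, and the highest PWS line, 19-4, was under the lowest control line, 2, by a few counts. Under nonunique none counting lines 19-4 and 2 changed places and the groups overlapped, as they also did in RSEM. The log2 fold change was -0.08 (95% confidence interval -0.22 to 0.07, adjusted limma p-value 0.684).

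Herpud1 (ENSRNOG00000018796), which recruits and helps to organise the ligase complex and is itself short-lived, had the second widest difference. It had normalized counts of 2654, 3948 and 3146 in control lines 5-9, 2 and 16 and 2757, 2332 and 2208 in PWS lines 3, 19-1 and 19-4. The groups overlapped, since PWS line 3 was above control line 5-9, while both subclones of line 19 were below all control lines. The means were 3249 ± 653 and 2433 ± 288 (SD, n = 3 lines each), and the difference on the log2 scale was -0.40 (standard error 0.15, 95% confidence interval -0.74 to -0.07). The unadjusted limma p-value was 0.0229 and the adjusted one 0.369, and DESeq2 gave an adjusted p-value of 0.159. Without control line 2 the log2 fold change was -0.25 and without control line 5-9 it was -0.54.

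The ligase itself was the only one of the 10 with a higher mean in the PWS lines. Syvn1 (ENSRNOG00000020950) had 1256, 1647 and 1466 normalized counts in the control lines and 1552, 1554 and 1448 in the PWS lines. The 3 PWS lines lay inside the range of the control lines. The log2 fold change was 0.07 (95% confidence interval -0.17 to 0.30, adjusted limma p-value 0.847), and without control line 5-9, the lowest of the 6, it was -0.034, and without line 2 it was 0.16. Reads assigned to it alone (nonunique none over nonunique all counting) made up 89.7%, the lowest share of the 10 after Derl3, while the other 8 genes had 99.4% to 99.9%.

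Sel1l (ENSRNOG00000004464), the partner that keeps the ligase stable and passes substrates to it, had normalized counts of 6359, 6694 and 8180 in control lines 5-9, 2 and 16 and 7291, 5786 and 5679 in PWS lines 3, 19-1 and 19-4. Both subclones of line 19 were below all control lines, and line 3 was above 2 of the 3. Its fold change on the log2 scale was -0.18 (95% confidence interval -0.47 to 0.11, adjusted limma p-value 0.632). Without control line 16 it was -0.07, without PWS line 19-4 -0.12 and without PWS line 3 -0.30.

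As in every gene of the 10 but Derl3, both lectins varied among the control lines by more than the groups differed. Os9 (ENSRNOG00000025570) had normalized counts of 4055, 3385 and 4709 in control lines 5-9, 2 and 16 and 4016, 3421 and 3056 in the PWS lines. Control line 2 was lower than PWS lines 3 and 19-1. The log2 fold change was -0.21 (95% confidence interval -0.52 to 0.11, adjusted limma p-value 0.610). It was -0.09 without control line 16, -0.11 without PWS line 19-4, -0.31 without PWS line 3 and -0.33 without control line 2. Erlec1 (ENSRNOG00000007283) had 3241, 2505 and 4041 in the control lines and 3092, 3081 and 2438 in the PWS lines. It had the widest range among control lines of the 10, 0.69 on the log2 scale between lines 2 and 16. Its log2 fold change was -0.17 (95% confidence interval -0.55 to 0.22, adjusted limma p-value 0.757), and without control line 16 it was 0.0018, with no direction left. It was -0.05 without PWS line 19-4 and -0.34 without control line 2.

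The mannosidase-like factors were near each other in their differences. Edem1 (ENSRNOG00000055365) had normalized counts of 2609, 3704 and 2854 in control lines 5-9, 2 and 16 and 2722, 2829 and 2558 in PWS lines 3, 19-1 and 19-4. Control line 2 stood above the other 5 lines, which lay close together. On the log2 scale the difference was -0.16 (95% confidence interval -0.45 to 0.12, adjusted limma p-value 0.662), with values of -0.02 when control line 2 was left out and -0.27 when line 5-9 was. Edem2 (ENSRNOG00000019299) had 2788, 2723 and 3455 in the control lines and 3021, 2755 and 2266 in the PWS lines. Control line 16 was the highest and PWS line 19-4 the lowest, and the other lines of the 2 groups overlapped. The log2 fold change was -0.16 (95% confidence interval -0.45 to 0.13, adjusted limma p-value 0.679). It was -0.04 without PWS line 19-4, -0.05 without control line 16 and -0.25 without PWS line 3.

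**Figure D2:**
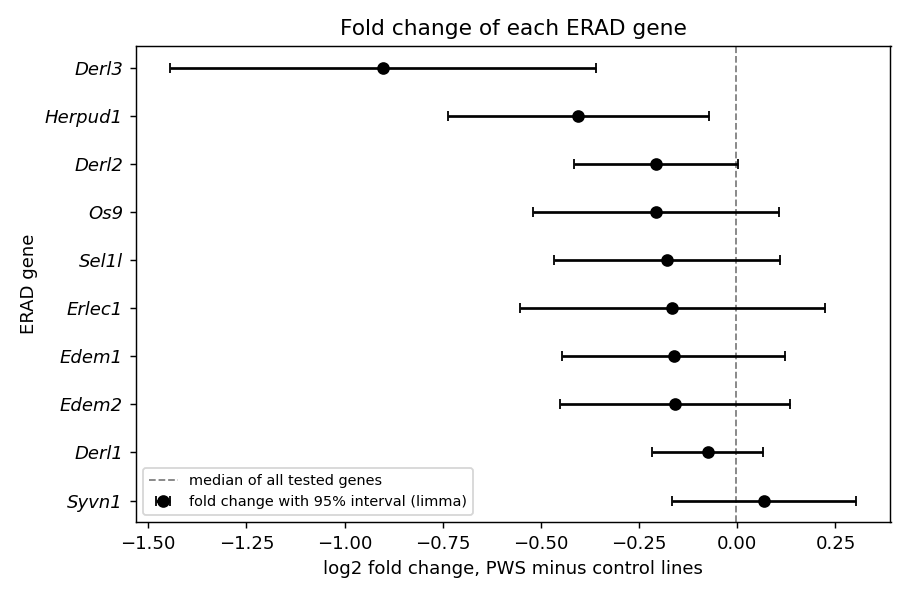
Log2 fold change (x axis, PWS minus control lines) of each of the 10 ERAD genes (y axis), with points for the limma estimate, bars for its 95% confidence interval and a dashed line for the median of all tested genes. The intervals of Derl3 (-1.44 to -0.36) and Herpud1 (-0.74 to -0.07) lie below 0, before adjustment for the number of genes tested, and the other 8 reach 0 or cross it.

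The intervals say what sizes of difference these lines leave room for. For Derl1 the 95% interval of the ratio of PWS to control lines ran from 0.86 to 1.05. For Sel1l it ran from 0.72 to 1.08, for Syvn1 from 0.89 to 1.23 and for Erlec1 from 0.68 to 1.17. The absence of a call in these genes is thus no sign that the groups are the same. With lines 19-1 and 19-4 averaged as 1 sample, the log2 fold change was -0.79 for Derl3 (adjusted limma p-value 0.525). For Herpud1 it was -0.36 (adjusted limma p-value 0.654).

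The genes did not share 1 order of the lines. Control line 16 was the highest of the 6 lines for Sel1l, Derl1, Derl2, Os9, Erlec1 and Edem2, and control line 2 was the highest for the other 4, Syvn1, Herpud1, Derl3 and Edem1. In 6 genes, Sel1l, Herpud1, Os9, Erlec1, Edem1 and Edem2, line 19-4 was the lowest, and in the 3 derlins line 19-1 was. Line 5-9, from which the others were derived, was the lowest for Syvn1. No PWS line was the highest for any of the 10.

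Among the PWS lines, line 3 was above both subclones of line 19 in 7 of the 10 genes, all but Syvn1, Derl1 and Edem1. Measured against the mean of the control lines, the median over the 10 genes was -0.06 on the log2 scale in line 3, -0.18 in line 19-1 and -0.35 in line 19-4. In control lines 5-9, 2 and 16 it was -0.11, -0.06 and 0.10, so that line 3 lay within the control lines and both subclones of line 19 below them. The medians of all tested genes lay between -0.0020 and 0.0035 in the 6 lines. The median log2 fold change of the 10 genes was -0.25 without line 3, -0.11 without line 19-4 and -0.08 without control line 16, and 8 to 10 of the 10 were lower on average with any 1 line left out, where Syvn1 and Erlec1 were those that turned.

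**Figure D3:**
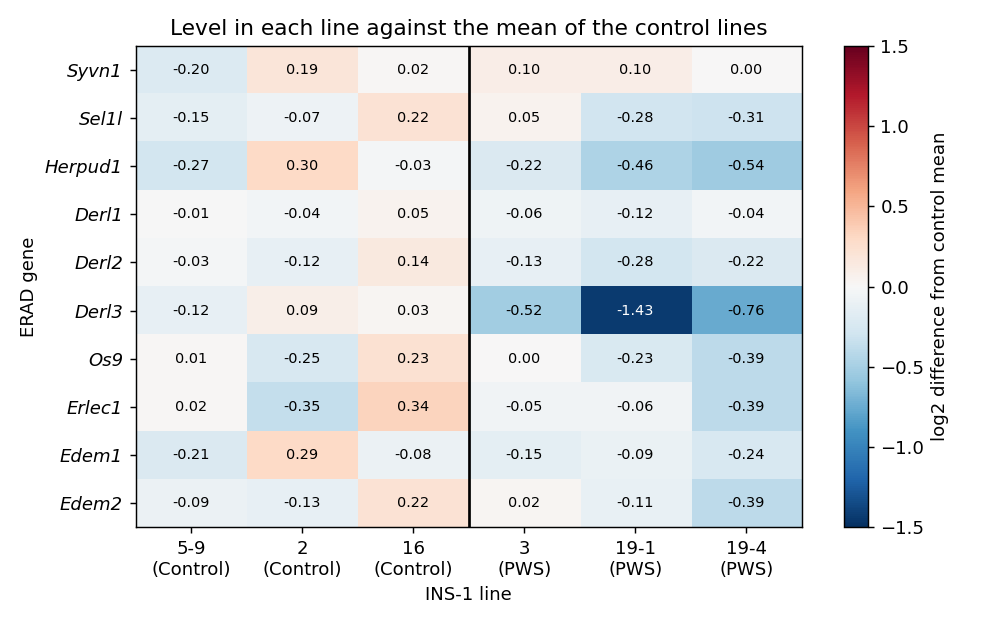
Log2 level of the 10 ERAD genes (y axis) in each of the 6 lines (x axis), as the difference from the mean of the control lines, in colour and in figures. Derl3 is lower in all 3 PWS lines (-0.52, -1.43 and -0.76), while Sel1l, Os9 and Edem2 in PWS line 3 are between 0.00 and 0.05.

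A wider list of 59 other ERAD genes was set beside the 10, and 58 of them were tested. Of these, 35 had a lower mean in the PWS lines and 23 a higher one, and the median log2 fold change was -0.04. After adjustment no gene had a p-value under 0.05 by limma, edgeR or DESeq2. At an unadjusted limma p-value under 0.05 there were 8 of the 58, near the 11.3% of all tested genes. In 10 of the 58 every PWS line was lower than every control line (9.01% of all tested genes) and in 0 every PWS line was higher (8.43%).

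By role, the genes that act on the cytosolic side with the ATPase p97 had the lowest median. Of these 10 genes 8 had a lower mean, the median was -0.10 on the log2 scale, and in 4 every PWS line was lower than every control line, as in 9.01% of all tested genes. Vcp, which encodes p97 itself, the motor that pulls substrates out of the membrane, had a mean of 28001 ± 4417 in control and 23083 ± 1005 in PWS lines (normalized counts, SD, n = 3 lines each). Every PWS line was lower than every control line, and the log2 fold change was -0.27 (95% confidence interval -0.53 to -0.01, adjusted limma p-value 0.432). Without control line 2, the highest, it was -0.14. Selenos, a selenoprotein that links p97 to the derlins, had a log2 fold change of -0.24 (adjusted limma p-value 0.511), with overlapping groups, and -0.12 without control line 16.

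Of the 7 tested mannose trimming and lumenal factors 6 were lower on average, with a median of -0.09. Dnajb9, a lumenal co-chaperone of BiP that favours degradation, had a mean of 1097 ± 149 in control and 898 ± 69.1 in PWS lines (normalized counts, SD, n = 3 lines each). The groups did not overlap, and the log2 fold change was -0.28 (adjusted limma p-value 0.407), or -0.18 without control line 16. Man1a1, a mannosidase of the early secretory pathway, was at the other end with 0.13 (adjusted limma p-value 0.828), and its direction turned, to -0.07, without control line 2. Both intramembrane proteases, Hm13 and Rhbdd1, were lower on average, with a median of -0.10.

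Among the 5 ubiquitin-conjugating enzymes the median was -0.02. Ube2j1, the membrane-anchored enzyme that works with the ligase of Syvn1, had the lowest log2 fold change of the 58, -0.32 (95% confidence interval -0.64 to -0.01, adjusted limma p-value 0.432). Control lines 5-9, 2 and 16 had 894, 1347 and 1138 normalized counts of it, against 867, 927 and 868 in the PWS lines, so that line 5-9 lay among the PWS lines. Without control line 2 its log2 fold change was -0.19. The 8 scaffold and ligase partners had a median of -0.05, and Herpud2, the paralog of Herpud1, had a log2 fold change of 0.18 (adjusted limma p-value 0.604), opposite in sign to Herpud1, and 0.12 to 0.27 with 1 line left out. The difference between the paralogs was not tested.

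The 11 other membrane ligases and their partners were the only group with a median above 0, at 0.03, and 8 of them were higher on average. The 15 genes of cytosolic handling and deubiquitination had a median of -0.04. Ubqln2, a shuttle factor that carries ubiquitinated proteins to the proteasome, had the highest log2 fold change of the 58, 0.38 (adjusted limma p-value 0.333), with overlapping groups.

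**Figure D4:**
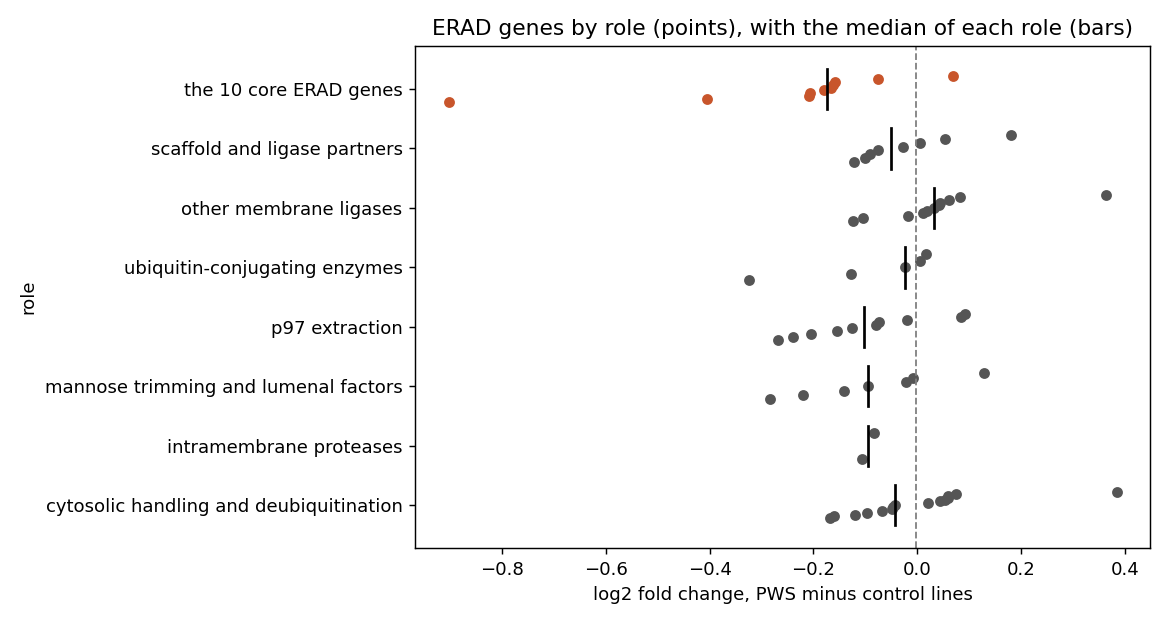
Log2 fold change (x axis, PWS minus control lines) of the 10 core ERAD genes (top row) and of the 58 other tested ERAD genes by role (y axis), with a point for each gene, a bar for the median of a role and a dashed line for the median of all tested genes. The core genes have a median of -0.17, and the roles of the other genes lie between -0.10 and 0.03.

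The folding side of the ER gives a scale for these values. The 12 ER chaperones had a median log2 fold change of -0.50, from -0.95 for Sdf2l1, a partner of the BiP system, to -0.19 for Pdia3, a disulfide isomerase of glycoproteins. All 12 were lower on average, and many of them were picked by the study for lower levels in these lines, so their direction is not independent evidence. After adjustment 0 of the 12 had a p-value under 0.05 by limma or edgeR, as for the 10 ERAD genes (0.257% and 0.205% of all tested genes). By DESeq2 8 of the 12 did so, and 0 of the 10 (1.46% of all tested genes). Of the 10 ERAD genes only Derl3 had a lower log2 fold change than the chaperones' median, and 6 (Syvn1, Sel1l, Derl1, Erlec1, Edem1 and Edem2) lay above that of Pdia3. The difference between the lists was not tested.

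The genes with an ERSE or ERSE-II in their RefSeq window were then described as a set defined by sequence alone, which was chosen after the values of Derl3 and Herpud1 were seen. Of the tested genes 26 had such a window, Derl3 and Herpud1 among them, and 6 are of the 12 chaperones. Of the 26, 21 had a lower mean in the PWS lines, the median was -0.30 on the log2 scale, and in 11 every PWS line was lower than every control line, as in 9.01% of all tested genes. Without Derl3 and Herpud1, 19 of 24 were lower, with a median of -0.25. Of the 18 that are neither ERAD genes of either list nor chaperones of the list, 13 were lower, with a median of -0.13. In 4 of the 18 every PWS line was lower than every control line (9.01% of all tested genes). The 18 still hold genes of ER folding (Calr, Canx and Ero1b) and Xbp1, which the list of 12 chaperones leaves out. After adjustment no gene of the 26 had a p-value under 0.05 by limma or edgeR, and 5 did by DESeq2 (1.46% of all tested genes), all 5 of them chaperones of the list and 0 among the 18. In limma 13 of the 26, and 5 of the 18, had an unadjusted p-value under 0.05 (11.3% of all tested genes). The 146 tested genes with a UPRE had a median of -0.04 and the 3863 with CCAAT of -0.02.

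**Figure D5:**
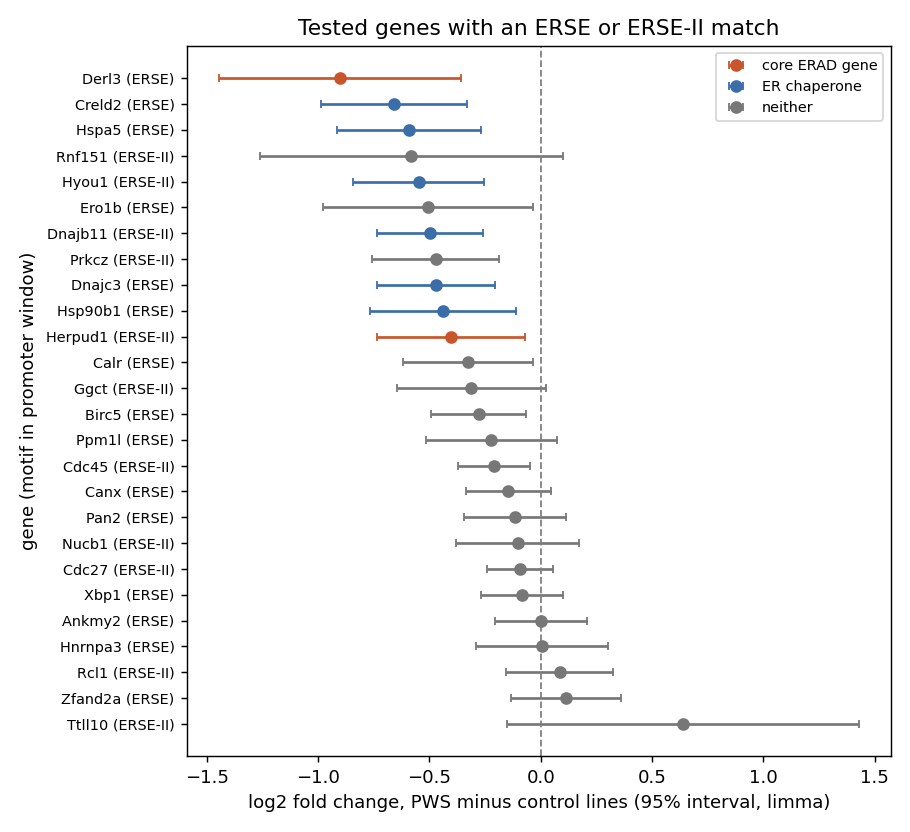
Log2 fold change (x axis, PWS minus control lines) of the 26 tested genes with an ERSE or ERSE-II match in their RefSeq promoter window (y axis, motif in brackets), with points for the limma estimate and bars for its 95% confidence interval. Derl3 is the lowest of the 26, the 6 chaperones and some genes of neither list lie between it and Herpud1, and 5 of the 26 are above 0.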

How the data were processed

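Total RNA depleted of rRNA from 3 control and 3 PWS INS-1 lines was sequenced as paired-end stranded libraries. After trimming, the authors aligned reads with STAR to Ensembl rat sequence to which the transgenes had been added, and used HTSeq or RSEM for counting (STAR 2.7.0e, HTSeq 0.11.2 and RSEM 1.3.1 in the submitters' processing notes). The values deposited (unit: signal) are counts that were scaled by DESeq2 size factors, called normalized counts here. In the main table a read counts wherever it aligns and for each overlapping gene (nonunique all), and the other HTSeq table leaves reads with several alignments or overlapping genes out (nonunique none). The authors' fold changes and p-values, also in the tables, were not used. Division by the smallest value of a column gave whole reads (tolerance 0.01) for 100% of the values of either HTSeq counting, and not for RSEM. The share of reads assigned to a gene alone is the ratio of both countings, not a share of uniquely aligned reads.

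The comparison of groups used limma 3.58.1 under R 4.3.3 (eBayes with trend, no covariate) on log2(normalized count + 1) over all 15579 genes, with Benjamini-Hochberg adjustment, a mean of at least 5 and a threshold of 0.05. This scale understates changes of low genes. edgeR 4.0.16 (quasi-likelihood) and DESeq2 1.42.0 on the recovered reads were alternatives, as were pseudocounts of 0.5 and 5, other filters, TMM scaling, no trend, both other tables, leaving out each line, a block for the replicate number, the mean of lines 19-1 and 19-4 as 1 sample, and an adjusted p-value under 0.1. The limma, edgeR and DESeq2 fits were tried on simulated counts of independent lines. Related lines, changes as small as those of most genes here, and the other alternatives were not simulated. The p-values measure only the spread between lines. Limits from a count of 0 and counting errors cover counting error only. Replicate numbers do not pair the lines, since deviations of same-numbered lines correlated by 0.0035, 0.047 and 0.0051.

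The 10 genes, the lists and the alternatives were chosen with earlier results of these data known. Of the 59 other ERAD genes, the 4 lowest and 4 highest log2 fold changes were named, and any past the threshold, and of the chaperones the lowest and the highest. Hspa5 and Creld2 were named outside this rule, as examples of an ERSE. A gene chosen by this rule and a cell type marker are not reported here. Proteins were not aligned and transcript lengths were not used here, so levels are not compared between genes. RefSeq windows are of GRCr8, which may not be the build of the counted annotation, and were matched by symbol.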

Additional observations from a re-analysis of the deposited data

How the results depend on the processing

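None of the 10 ERAD genes passed the threshold under any alternative but DESeq2 with an adjusted p-value under 0.1, added after the data were seen, which gave 1 (Derl3). Their median log2 fold change lay between -0.25 and -0.08 with 1 line left out and between -0.18 and -0.14 under the other alternatives. The number of genes lower on average was 8 to 10 with 1 line left out. Of 179 fold changes of the 10 genes under 18 alternatives, 177 kept their direction and their side of the threshold. With 1 line left out, Syvn1 ran from -0.034 (without control line 5-9) to 0.16, Erlec1 from -0.34 to 0.0018 (without control line 16) and, among the other ERAD genes, Man1a1 from -0.069 (without control line 2) to 0.28, so their directions turned. The cause was not tested. The groups did not overlap in 3 of the 10 in the main table, in 1 under nonunique none counting, where Derl3 had no reads, and in 2 under RSEM. Of the other ERAD genes, 0 to 1 passed with 1 line left out, the 1 without line 3. Over all tested genes 40 passed in limma, 33 to 55 with 1 line left out, 12 with RSEM, 16 under nonunique none counting, 9 with a mean of at least 50, 228 in DESeq2 and 369 in DESeq2 at 0.1.

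With the replicate number as a block, 0 of the 10 genes, 0 of the other ERAD genes and 36 of all tested genes passed, and the median log2 fold change of the 10 was -0.17. As the numbers do not pair the lines, this was not read further. Depth limits Derl3 most, with 43 reads in its lowest line and none assigned to it alone. It also limits the lack of overlap in Derl1 and Derl2, where the nearest lines of the groups differed by less than counting error.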
